A study of Mus musculus with 23 samples.

Results

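Fatty acid oxidation in muscle begins when acyl-CoA synthetases join a fatty acid to coenzyme A and carnitine transferases carry the acyl chain into the mitochondrion. Acyl-CoA dehydrogenases, hydratases, hydroxyacyl dehydrogenases and thiolases then shorten the chain step by step to acetyl-CoA, and electrons pass through the electron transfer flavoproteins to the respiratory chain. Peroxisomes oxidise chains of their own, thioesterases release free acids, and oxidative muscle fibres depend on the pathway more than glycolytic ones.

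The genes described here are 35 enzymes of this pathway chosen by name and role, with earlier results of these data known. On these arrays the paper had already reported *Hadhb*, *Acadl* and *Acaa2* as higher in Ms3Yah muscle. It also reported fatty acid degradation among the gene sets changed in both lines. The counts below are thus not independent of those results. Of the 35, 33 have a probe in the platform annotation and 2, *Acsl1* and *Acad11*, were not analysed here. They are read by 69 of the 45281 probes of the array, and the 33 stand among 19037 named genes tested in either line. Where a gene has several probes, as 21 of the 33 do, the probe with the brightest mean signal over the 23 arrays stands for it.

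Gene expression was read in gastrocnemius muscle of adult mice on C57BL6/J, 1 mouse per array. There were 6 Ms3Yah mice, which carry on 1 chromosome 16 a deletion of the *Hspa13*-*App* interval, with 6 diploid littermates, and 6 Ts3Yah mice, which carry a tandem duplication of that interval (the labels write Ts2Yah), with 5 diploid littermates. The deletion removes 1 copy of *Hspa13* and *App* too. By the paper, the duplication holds *Hspa13* in 2 functional copies but *App* in only 1. Both changes are constitutive and sit in every cell of the mouse, and whole muscle was used, so that fewer cells of a type and less RNA per cell cannot be told apart. The 2 lines have no control mice in common, and age and sex were not given in the labels.

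Markers of skeletal muscle were bright on every array, with summed signals of 10 genes between 255262 and 296619. Of 16 named genes of the interval that were tested, 15 had a lower mean signal in Ms3Yah muscle than in diploid littermates, and *App*, *Atp5j* and *Jam2* fell at an adjusted p below 0.05 (limma). In Ts3Yah muscle 12 of 16 had a higher mean signal than in their diploid littermates, with none past that threshold. No fatty acid oxidation gene lies in the interval, and the members are spread over 16 chromosomes. Array signals correlated at 0.973 to 0.995 between all pairs of arrays, so no array was a copy of another. Arrays fall into 12 with high and 11 with low *Xist* signal. The log2 signal of the Y-linked gene *Eif2s3y* was 6.37 to 6.87 in the high class and 8.96 to 9.70 in the low class. The 2 classes thus go with female and male mice.

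Values are quantile-normalised signals on a linear scale. Fold changes divide the mean of the aneuploid mice by the mean of their diploid littermates, log2 changes carry their SE, and p-values come from limma on log2 signals and are adjusted over all expressed probes of a line. Single genes were also tested by an exact two-sided permutation test over mice, whose smallest possible p is 0.00216 in both lines.

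No fatty acid oxidation gene passed an adjusted p of 0.05 in either line or in the difference between the lines, and the smallest adjusted p among the brightest probes was 0.637 in Ms3Yah, 0.722 in Ts3Yah and 0.29 for the difference. Over all expressed probes, 0.018% passed in Ms3Yah, 0.00455% in Ts3Yah and 0.0278% for the difference. At an unadjusted p below 0.05 in limma, 8 of 33 members had a higher signal in Ms3Yah muscle, against 3.02% of all genes tested, and 1 had a lower signal, against 2.99%. In Ts3Yah muscle 6 of 33 had a lower signal, against 3.35% of all genes, and 0 a higher one, against 3.06%.

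The log2 change was positive for 28 of 33 members in Ms3Yah muscle, with a median of 0.12 and a range of −0.34 to 0.56, while the median of all genes tested was −0.0014 and 48.9% of them were positive. In Ts3Yah muscle the change was negative for 28 of 33, with a median of −0.05 and a range of −0.23 to 0.07, while the median of all genes was −0.0012 and 50.7% were negative. For 24 of the 33 members the change was positive in Ms3Yah and negative in Ts3Yah, which was so for 25.7% of the 18676 genes tested in both lines. The Ts3Yah change minus the Ms3Yah change was below 0 for 28 of 33 members, with a median of −0.18. It passed an unadjusted p of 0.05 below 0 for 10 members, against 3.47% of all genes, and above 0 for 0, against 3.01%. Of the 29 members detected on every array, 26 had a positive change in Ms3Yah and 25 a negative change in Ts3Yah. With *Xist* class as a term in the fit, 9 members were higher at the unadjusted threshold in Ms3Yah and 6 lower in Ts3Yah, and the difference passed below 0 for 11 and above 0 for 1, *Acsl3*. The Ts3Yah median was then −0.09, with 7 members positive.

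**Figure D1:**
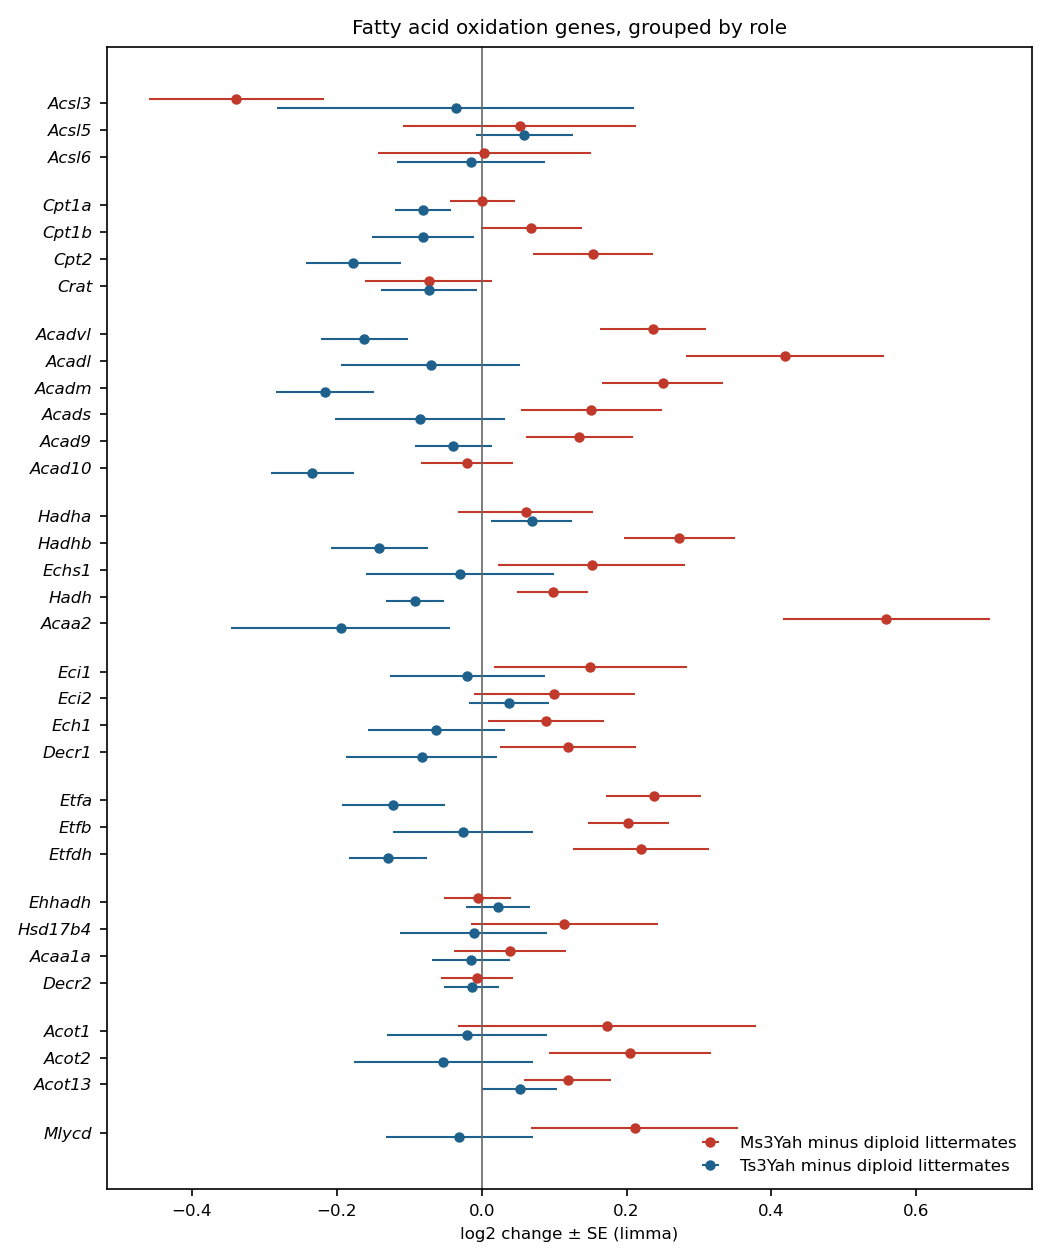
Log2 change ± SE (limma) of the 33 fatty acid oxidation genes in Ms3Yah muscle (red) and Ts3Yah muscle (blue) against diploid littermates, grouped by role from activation at the top to malonyl-CoA decarboxylase at the bottom. Red points lie to the right of 0 for 28 genes and blue points to the left of 0 for 28.

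Among the mice, the median of the 33 members, each set against the mean log2 signal of the diploid littermates of the line, lay between 0.04 and 0.22 in Ms3Yah mice, against −0.07 to 0.12 in diploid littermates. In Ts3Yah mice it lay between −0.17 and 0.05, against −0.06 to 0.06 in theirs. Every Ms3Yah mouse was thus above 0, as were diploid littermates 37094, which stood apart from its group at 0.12, and 37145, at 0.01. Replicate 37094 lay above Ms3Yah replicates 37148, 37039 and 37074. Of the Ts3Yah mice, 1 (replicate 34730) stood apart at 0.05 while the other 5 were at −0.04 or below. Diploid littermates 34723, at −0.04, and 34923, at −0.06, lay in the range of those 5. The groups thus overlapped in both lines. No member separated all aneuploid mice from all diploid littermates in either line. Over all genes the groups did not overlap for 0.18% higher and 0.143% lower in Ms3Yah, and for 0.277% higher and 0.287% lower in Ts3Yah.

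**Figure D2:**
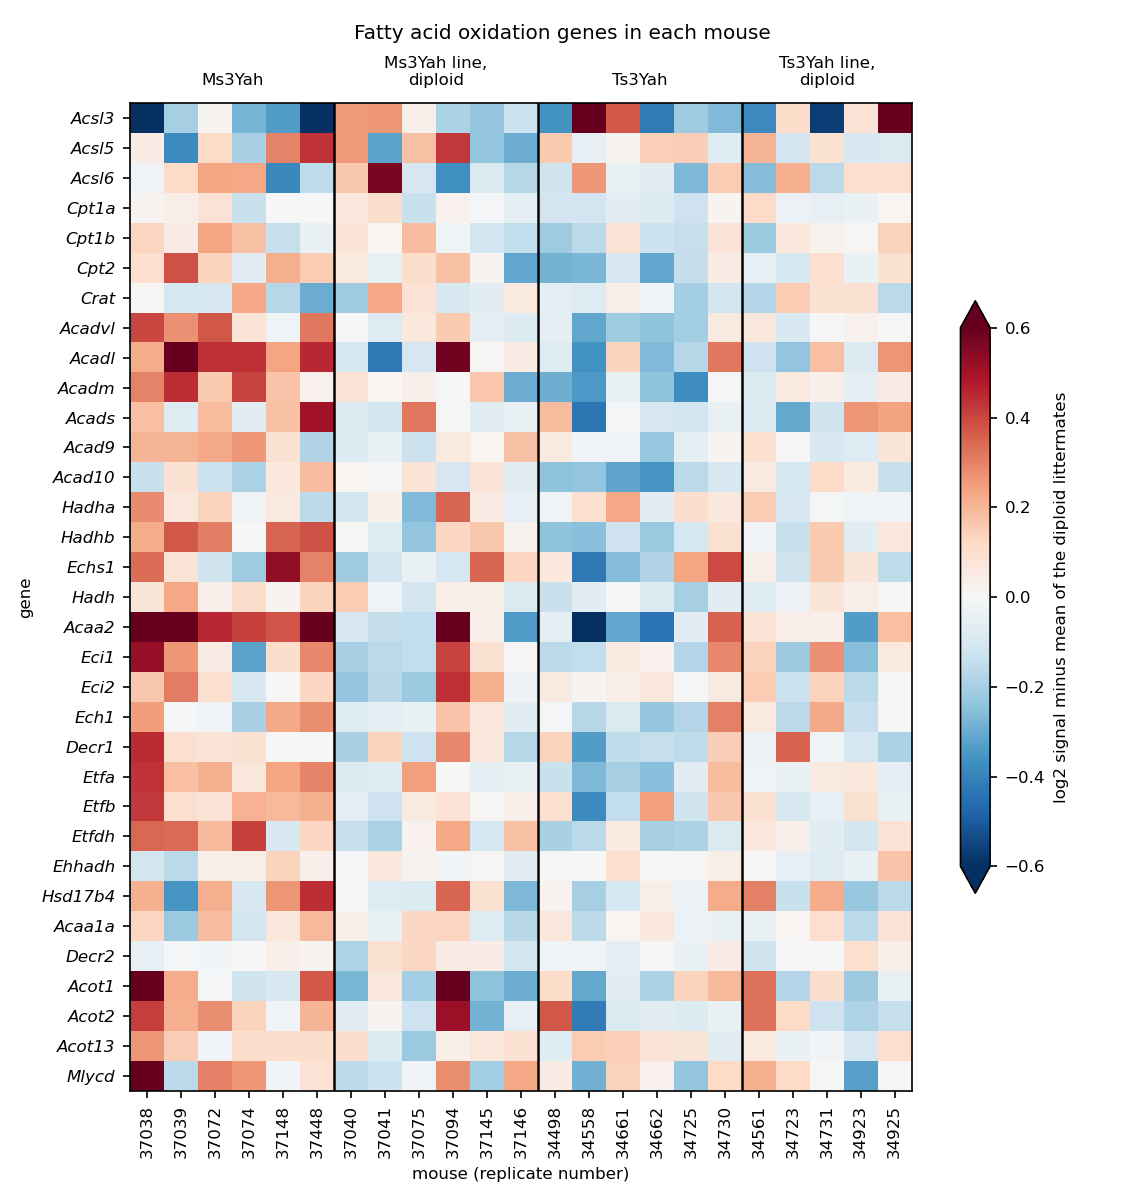
Log2 signal of each fatty acid oxidation gene (rows) in each mouse (columns, by replicate number) minus the mean of the diploid littermates of the line, with aneuploid mice left of their diploid littermates and the colour scale limited to ±0.6. Red prevails in the Ms3Yah mice and in diploid replicate 37094, and blue in the Ts3Yah mice other than replicate 34730. In diploid replicates 34723 and 34923 only 12 of 33 genes lie above 0, so blue prevails there too.

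The acyl-CoA dehydrogenases take the first oxidative step of each round. Of the 6 measured, 5 were higher in Ms3Yah by mean and 3 passed (*Acadvl*, *Acadl*, *Acadm*), while in Ts3Yah all 6 were lower by mean and 3 passed (*Acadvl*, *Acadm*, *Acad10*). The median log2 change of the 6 was 0.19 in Ms3Yah and −0.12 in Ts3Yah.

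Nuclear receptors and their coactivators drive genes of this pathway, and short stretches of promoter are shown because *Acadm* and *Acadvl* passed the unadjusted threshold in opposite directions in the 2 lines, whereas *Acsl6* did not. The sequences are RefSeq promoters of GRCm38.p6, of 250 bases before to 50 after the start of a gene, and 26 of the 33 members have one. They were searched on both strands for the core hexamer AGGTCA, for the element TNAAGGTCA of oestrogen-related receptors, which contains the hexamer, and for 2 hexamers with 1 base between, the arrangement of peroxisome proliferator-activated receptors. Each sequence runs 5′ to 3′ on the strand of its gene. Capitals mark the hexamer in *Acadm* and *Acadvl* and the full element in *Acsl6*, and in *Acadm* and *Acsl6* the match is on the opposite strand, so that it reads TGACCT. The stretches are chr3:153944857-153944893 (minus strand) for *Acadm*, chr11:70015480-70015545 (minus strand) for *Acadvl* and chr11:54303627-54303695 (plus strand) for *Acsl6*.
*Acadm*: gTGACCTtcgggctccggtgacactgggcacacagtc
*Acadvl*: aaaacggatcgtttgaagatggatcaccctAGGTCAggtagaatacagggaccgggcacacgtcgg
*Acsl6*: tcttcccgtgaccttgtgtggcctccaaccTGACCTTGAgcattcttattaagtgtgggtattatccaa

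The 26 members have 28 promoters, and the hexamer stood in 5 of them (*Acadm*, *Acadvl*, *Acsl6*, *Cpt1a* and *Echs1*). That is near the share of all 32851 promoters of that length, 16.3%. The full element stood in 1 member, *Acsl6*, and in 1.28% of all promoters, and the pair of hexamers in 0 members and in 0.0396%. These are matches of letters in a 300-base window and not binding sites.

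*Acadm*, the medium-chain dehydrogenase on chromosome 3, had the smallest p for the difference between lines. In Ms3Yah mice its signal had a lowest value of 6206, a median of 7184 and a highest value of 8288, against 4966, 6198 and 6853 in diploid littermates. All 6 Ms3Yah mice lay above the mean of the diploid littermates and 4 lay above the highest of them. In Ts3Yah mice the lowest, median and highest values were 5166, 5560 and 6657, against 6318, 6834, 6955, 6418 and 6922 in the 5 diploid littermates. All 6 Ts3Yah mice lay below the mean of their littermates and 4 lay below the lowest. The fold change was 1.19 in Ms3Yah (exact permutation p = 0.0195) and 0.864 in Ts3Yah (exact permutation p = 0.0303). The difference between lines was −0.47 ± 0.11 on the log2 scale (limma, adjusted p = 0.29).

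*Acadvl*, the very-long-chain dehydrogenase, had changes of the same signs. Ms3Yah mice had 3108, 3890 and 4176 as lowest, median and highest signal, against 2994, 3105 and 3525 in diploid littermates, and 4 of 6 lay above every littermate. Ts3Yah mice had 2713, 2914 and 3493, against 3535, 3370, 3166, 3426 and 3359 in theirs, and 4 of 6 lay below every littermate. The log2 changes were 0.24 ± 0.07 in Ms3Yah (exact permutation p = 0.0238) and −0.16 ± 0.06 in Ts3Yah (exact permutation p = 0.0433), and the difference was −0.40 ± 0.10 (limma, adjusted p = 0.306). A second probe of *Acadvl* gave 0.15 and −0.11.

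*Acadl*, the long-chain dehydrogenase, passed the unadjusted threshold in Ms3Yah. There its signals had a lowest value of 917.2, a median of 1066 and a highest value of 1296, against 584.5, 762.7 and 1176 in diploid littermates. The littermate at 1176 was replicate 37094, and the other 5 lay below every Ms3Yah mouse. The log2 change was 0.42 ± 0.14 (exact permutation p = 0.0216), and in Ts3Yah it was −0.07 ± 0.12. The 2 other probes of *Acadl*, detected on every array, gave 0.23 and 0.03 in Ms3Yah and did not pass the unadjusted threshold. The difference between lines was −0.49 ± 0.20 (limma, adjusted p = 0.79).

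*Acad10* and *Acad9* are dehydrogenases with less settled roles, and *Acads* acts on short chains. *Acad10* had 111.5, 120.5 and 132.9 as lowest, median and highest signal in Ts3Yah mice, against 148.3, 154.6, 132.3, 147.8 and 129.8 in diploid littermates, and 5 of 6 lay below every littermate. Its log2 change was −0.23 ± 0.06 in Ts3Yah (exact permutation p = 0.0108) and −0.02 ± 0.06 in Ms3Yah, where the groups overlapped widely. A second probe of the gene, detected on every array, gave −0.02 in Ts3Yah, so the probes disagree, and the remaining probe was detected on 1 of 23 arrays. *Acad10* is dim, and the signals of its brightest probe lay not far above the expression filter of 89.8. For *Acads* the changes were 0.15 ± 0.10 in Ms3Yah and −0.09 ± 0.12 in Ts3Yah, and for *Acad9* 0.13 ± 0.07 and −0.04 ± 0.05. A second *Acad9* probe gave 0.10 in Ms3Yah and −0.15 in Ts3Yah, and passed the unadjusted threshold in Ts3Yah.

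**Figure D3:**
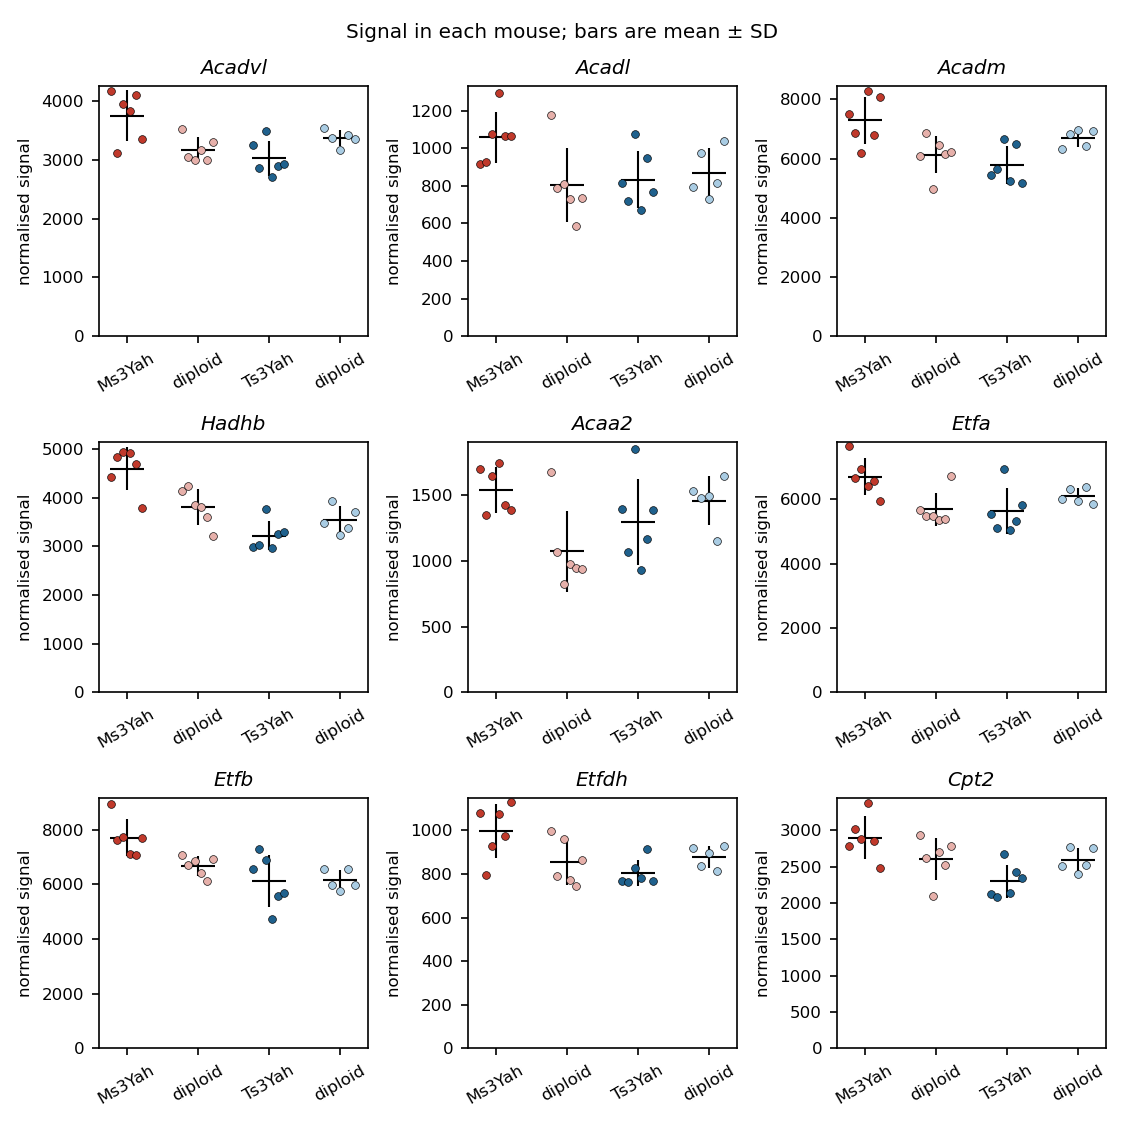
Quantile-normalised signal of 9 fatty acid oxidation genes in each mouse (points), with the mean ± SD of the group as a cross, for Ms3Yah mice and their diploid littermates (left pair) and Ts3Yah mice and theirs (right pair). For *Acadm*, *Acadvl* and *Acaa2* the Ms3Yah points lie mostly above those of the littermates, and for *Acadm*, *Acadvl* and *Cpt2* the Ts3Yah points lie mostly below.

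The enzymes that follow in the mitochondrial matrix were all higher by mean in Ms3Yah, 5 of 5, and 2 of them passed the unadjusted threshold. *Acaa2*, the mitochondrial thiolase, had the highest log2 change of the 33 members. In Ms3Yah mice its signal had a lowest value of 1352, a median of 1536 and a highest value of 1742, against 822.9, 958.9 and 1677 in diploid littermates. Replicate 37094 was again the high littermate, and the other 5 lay below every Ms3Yah mouse. The fold change was 1.44, a log2 change of 0.56 ± 0.14 (exact permutation p = 0.0108; limma, adjusted p = 0.637), and it was 0.53, 0.56 and 0.38 with the 3 other probes. Without replicate 37094 it was 0.70 and passed the adjusted threshold (limma, adjusted p = 0.0149), the single such call of a member in any setting run. In Ts3Yah mice the lowest, median and highest values were 926.6, 1277 and 1850, against 1532, 1480, 1490, 1150 and 1642 in littermates, and the groups overlapped (log2 change −0.19 ± 0.15). Without Ts3Yah replicate 34730 that change was −0.30 and passed the unadjusted threshold. The difference between lines was −0.75 ± 0.22 (limma, adjusted p = 0.483).

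*Hadha* and *Hadhb* encode the subunits of the trifunctional protein, which hydrates, dehydrogenates and cleaves long chains. *Hadhb* had 3786, 4763 and 4947 as lowest, median and highest signal in Ms3Yah mice, against 3216, 3829 and 4241 in diploid littermates, and 5 of 6 lay above every littermate. In Ts3Yah mice it had 2976, 3142 and 3774, against 3489, 3943, 3229, 3374 and 3707 in littermates, and 3 of 6 lay below every littermate. The log2 changes were 0.27 ± 0.08 (exact permutation p = 0.013) and −0.14 ± 0.07 (exact permutation p = 0.0887), with a difference of −0.41 ± 0.11 (limma, adjusted p = 0.355). *Hadha* has a single probe, detected on every array but dim. Its signals lay not far above the expression filter of 89.8, where a change can be understated. Its signal had a lowest value of 123.2, a median of 143.4 and a highest value of 166.9 in Ms3Yah mice, against 114.4, 136.3 and 174.7 in diploid littermates, and 108.3, 120.1 and 133.3 in Ts3Yah mice, against 126.1, 113.0, 106.2, 111.5 and 111.8 in theirs. The groups overlapped in both lines, and the changes were 0.06 ± 0.09 in Ms3Yah and 0.07 ± 0.06 in Ts3Yah.

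*Hadh*, the hydroxyacyl dehydrogenase of shorter chains, had 111.8, 121.4 and 128.3 as lowest, median and highest signal in Ts3Yah mice, against 121.7, 134.8, 125.1, 131.7 and 128.3 in diploid littermates, and 3 of 6 lay below every littermate. Its log2 change was −0.09 ± 0.04 (exact permutation p = 0.0411), and in Ms3Yah it was 0.10 ± 0.05, with 131.4, 138.2 and 152.7 in Ms3Yah mice, against 120.3, 130.5 and 144.4 in littermates. A second *Hadh* probe gave 0.11 in Ms3Yah, past the unadjusted threshold, and −0.13 in Ts3Yah, not past it. Like *Hadha*, *Hadh* is dim, with signals not far above the expression filter of 89.8. *Echs1*, the short-chain enoyl-CoA hydratase, had changes of 0.15 ± 0.13 in Ms3Yah and −0.03 ± 0.13 in Ts3Yah, and its second probe gave −0.0032 and −0.16, the Ts3Yah value past the unadjusted threshold. Of the 4 auxiliary enzymes that handle double bonds in the chain, *Eci1*, *Eci2*, *Ech1* and *Decr1*, none passed the unadjusted threshold. Their changes lay between 0.09 and 0.15 in Ms3Yah and between −0.08 and 0.04 in Ts3Yah.

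The electron transfer flavoproteins, which pass electrons from the dehydrogenases to ubiquinone, had 3 of 3 members higher at the unadjusted threshold in Ms3Yah and 1 of 3 lower in Ts3Yah. *Etfa*, the alpha subunit, had a lowest signal of 5942, a median of 6623 and a highest of 7652 in Ms3Yah mice, against 5359, 5479 and 6732 in diploid littermates. Apart from the littermate at 6732, replicate 37075, no littermate reached the lowest Ms3Yah mouse. In Ts3Yah mice it had 5061, 5440 and 6955, against 6009, 6335, 5942, 6385 and 5864 in littermates, and 5 of 6 lay below every littermate while replicate 34730 lay above them all. The log2 changes were 0.24 ± 0.07 in Ms3Yah (exact permutation p = 0.013) and −0.12 ± 0.07 in Ts3Yah (exact permutation p = 0.165), and the difference was −0.36 ± 0.10 (limma, adjusted p = 0.452).

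*Etfb*, the beta subunit, had 7055, 7662 and 8942 in Ms3Yah mice, against 6116, 6765 and 7072 in diploid littermates, as lowest, median and highest signal. Of the Ms3Yah mice 5 lay above every littermate, and the log2 change of 0.20 ± 0.06 had an exact permutation p of 0.00433. In Ts3Yah mice it had 4717, 6117 and 7292, against 6559, 5956, 5765, 6559 and 5983 in littermates, so that the Ts3Yah mice spread on both sides of them (log2 change −0.03 ± 0.10). A second *Etfb* probe gave 0.14 in Ms3Yah, not past the unadjusted threshold, and 0.04 in Ts3Yah. *Etfdh*, the dehydrogenase that accepts the electrons, had 797.2, 1025 and 1129 in Ms3Yah mice, against 745.9, 828.5 and 998.8 in littermates, and 3 of 6 lay above them all. Ts3Yah mice had 765.2, 775.9 and 913.5, against 918.6, 837.3, 894.8, 811.8 and 930.4 in theirs, and 4 of 6 lay below them all. The changes of 0.22 ± 0.09 and −0.13 ± 0.05 had exact permutation p-values of 0.0649 and 0.0606, and the difference was −0.35 ± 0.12 (limma, adjusted p = 0.624). Of the other *Etfdh* probes, 2 were detected on every array and gave 0.19 and 0.06 in Ms3Yah, the first past the unadjusted threshold, and 0.05 and −0.07 in Ts3Yah, neither past it, so that the Ts3Yah direction differs between probes.

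Of the carnitine transferases, the 3 detected on every array were lower by mean in Ts3Yah, and *Cpt2* passed the unadjusted threshold. *Cpt2*, which returns the chain to coenzyme A inside the mitochondrion, had a lowest signal of 2084, a median of 2242 and a highest of 2666 in Ts3Yah mice, against 2502, 2774, 2402, 2518 and 2757 in diploid littermates, and 4 of 6 lay below every littermate. Its log2 change was −0.18 ± 0.07 (exact permutation p = 0.0433), and its 2 other probes gave −0.17 and −0.19. In Ms3Yah mice it had 2483, 2866 and 3378, against 2094, 2665 and 2931 in littermates, with a change of 0.15 ± 0.08, and the difference between lines was −0.33 ± 0.11 (limma, adjusted p = 0.655). *Cpt1b*, the muscle form of the outer-membrane transferase that controls entry of long chains, had 2862, 3350 and 3707 in Ms3Yah mice, against 2845, 3143 and 3578 in littermates, and 3050, 3220 and 3738 in Ts3Yah mice, against 3023, 3583, 3689, 3548 and 3884 in theirs. The groups overlapped in both lines, with changes of 0.07 ± 0.07 and −0.08 ± 0.07. *Crat*, which exchanges short chains, had changes of −0.07 in both lines (SE 0.09 in Ms3Yah and 0.07 in Ts3Yah). Its 2 other probes, detected on every array, had the opposite sign in Ms3Yah, at 0.08 and 0.17, the second past the unadjusted threshold, and gave −0.09 and −0.03 in Ts3Yah. *Cpt1a*, the liver form, was detected on 1 of 23 arrays, and no fold is given.

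Of the acyl-CoA synthetases, *Acsl3*, which serves lipid droplets, was the 1 member with a lower signal at the unadjusted threshold in Ms3Yah. It had a lowest signal of 136.2, a median of 170.8 and a highest of 213.3 in Ms3Yah mice, against 180.0, 204.4 and 254.0 in diploid littermates, and 4 of 6 lay below every littermate. Its log2 change was −0.34 ± 0.12 in Ms3Yah (exact permutation p = 0.0368) and −0.04 ± 0.25 in Ts3Yah. The 2 other *Acsl3* probes were detected on 3 of 23 arrays each. The *Acsl3* signal was lower in mice of the high *Xist* class, at 174 to 201 in Ts3Yah mice, against 157 to 179 in littermates, than in the low class, at 301 to 372 in Ts3Yah mice, against 247 to 393 in theirs. The classes are unequally spread in that line (4 high and 2 low Ts3Yah mice, against 2 high and 3 low littermates), and the Ts3Yah change turned positive once they were kept apart. It was 0.16 within the high class, 0.21 within the low class and 0.18 with class as a term, not past the unadjusted threshold. With that term the difference between lines was 0.46 and passed the unadjusted threshold (limma, adjusted p = 0.666), whereas the Ms3Yah change was −0.34 within each class. The changes of *Acsl5* and *Acsl6* lay between −0.01 and 0.06 in both lines.

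The peroxisomal enzymes *Ehhadh*, *Hsd17b4*, *Acaa1a* and *Decr2* gave 0 of 4 past the unadjusted threshold, and the first 3 had changes between −0.01 and 0.11 in Ms3Yah and between −0.01 and 0.02 in Ts3Yah. The *Ehhadh* probe was detected on 17 of 23 arrays and that of *Decr2* on 6. The *Acaa1a* transcript is nearly identical to that of *Acaa1b*, so its probe could read both. The mitochondrial thioesterases *Acot2* and *Acot13*, and the cytosolic *Acot1*, had changes between 0.12 and 0.20 in Ms3Yah and between −0.05 and 0.05 in Ts3Yah, with 0 of 3 past the threshold, and *Acot1* and *Acot2* are near copies whose probes may not tell them apart. *Mlycd*, which removes malonyl-CoA, an inhibitor of the outer-membrane transferases, had changes of 0.21 ± 0.14 and −0.03 ± 0.10. Without diploid replicate 37094 the Ms3Yah changes of *Acot1* and *Acot2* were 0.36 and 0.31, and both passed the unadjusted threshold.

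A list of 68 related genes, named for their part in lipid supply, carriers and regulation, had 64 with a probe. In Ms3Yah 32 of the 64 were higher by mean, against 48.9% of all genes tested. Past the unadjusted threshold 7 were higher, against 3.02% of all genes, and 2 lower, against 2.99%. The count by mean and the lower count are thus near the shares of all genes. None passed an adjusted p of 0.05. In Ts3Yah 47 of 64 were lower by mean, against 50.7% of all genes. There 8 passed lower, against 3.35%, and 1 higher, against 3.06%, and again none passed the adjusted threshold.

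Among the regulators, *Ppargc1a*, the coactivator PGC-1α that drives mitochondrial biogenesis, had a lowest signal of 214.1, a median of 230.6 and a highest of 294.6 in Ms3Yah mice, against 174.9, 188.7 and 205.1 in diploid littermates. All 6 Ms3Yah mice lay above every littermate, which was so for 1 of the 64 related genes, against 0.18% of all genes. The log2 change was 0.33 ± 0.08, and without overlap its exact permutation p takes the smallest possible value, 0.00216. The change did not pass after adjustment over all probes (limma, adjusted p = 0.509). Ts3Yah mice had 155.7, 177.2 and 224.1, against 239.4, 182.9, 153.9, 152.1 and 166.2 in littermates, and the groups overlapped (log2 change 0.06 ± 0.12). *Esrra*, the oestrogen-related receptor α, which PGC-1α coactivates, had 901.7, 1188 and 1297 in Ms3Yah mice, against 824.7, 1022 and 1157 in littermates, with overlap between the groups. Ts3Yah mice had 802.6, 869.0 and 957.0, against 1120, 990.5, 951.7, 978.5 and 935.8 in theirs, and the groups overlapped only at their edges, since the highest Ts3Yah mouse lay above the lowest littermate. Its log2 changes were 0.22 ± 0.10 in Ms3Yah (exact permutation p = 0.0758) and −0.19 ± 0.05 in Ts3Yah (exact permutation p = 0.00866), and the difference was −0.41 ± 0.12 (limma, adjusted p = 0.483). *Rxra*, a partner of the peroxisome proliferator-activated receptors, had a higher signal at the unadjusted threshold in Ts3Yah (0.24 ± 0.07), while *Ppard* had changes of −0.01 and −0.02 and *Ppara* was detected on 2 of 23 arrays.

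*Nrip1* is the 1 related gene inside the engineered interval, and it encodes a corepressor of oxidative metabolism. Its probe was dim, detected on 2 of 6 Ms3Yah mice and 5 of 6 diploid littermates, and on 6 of 6 Ts3Yah mice and 5 of 5 littermates. The log2 change was −0.10 ± 0.05 in Ms3Yah (exact permutation p = 0.0541) and 0.09 ± 0.07 in Ts3Yah (exact permutation p = 0.286).

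In lipid supply, *Gpihbp1*, which holds lipoprotein lipase on capillary walls, had changes of 0.32 ± 0.10 in Ms3Yah and −0.41 ± 0.14 in Ts3Yah, and a difference of −0.73 ± 0.19 (limma, adjusted p = 0.326). *Slc25a20*, the carnitine-acylcarnitine carrier, had 0.32 ± 0.10 in Ms3Yah and −0.11 ± 0.11 in Ts3Yah. *Plin5*, a lipid droplet coat protein of oxidative tissue, had 0.67 ± 0.24 and −0.28 ± 0.18. *Pnpla2*, the triglyceride lipase, and *Acacb*, which makes malonyl-CoA at the mitochondrion, passed the unadjusted threshold lower in Ts3Yah, with −0.39 ± 0.09 and −0.24 ± 0.06, and had 0.13 ± 0.18 and 0.04 ± 0.08 in Ms3Yah. *Acad8*, of valine breakdown, had 0.24 ± 0.08 in Ms3Yah. In Ts3Yah *Ivd*, of leucine breakdown, had −0.28 ± 0.12, the thioesterases *Acot7* and *Acot6* had −0.17 ± 0.07 and −0.12 ± 0.05, and the peroxisomal transporter *Abcd2* had −0.22 ± 0.06. *Acox2*, a peroxisomal oxidase, and the thioesterase *Acot3* also passed the unadjusted threshold in Ms3Yah, but were detected on 10 and 1 of 23 arrays.

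**Figure D4:**
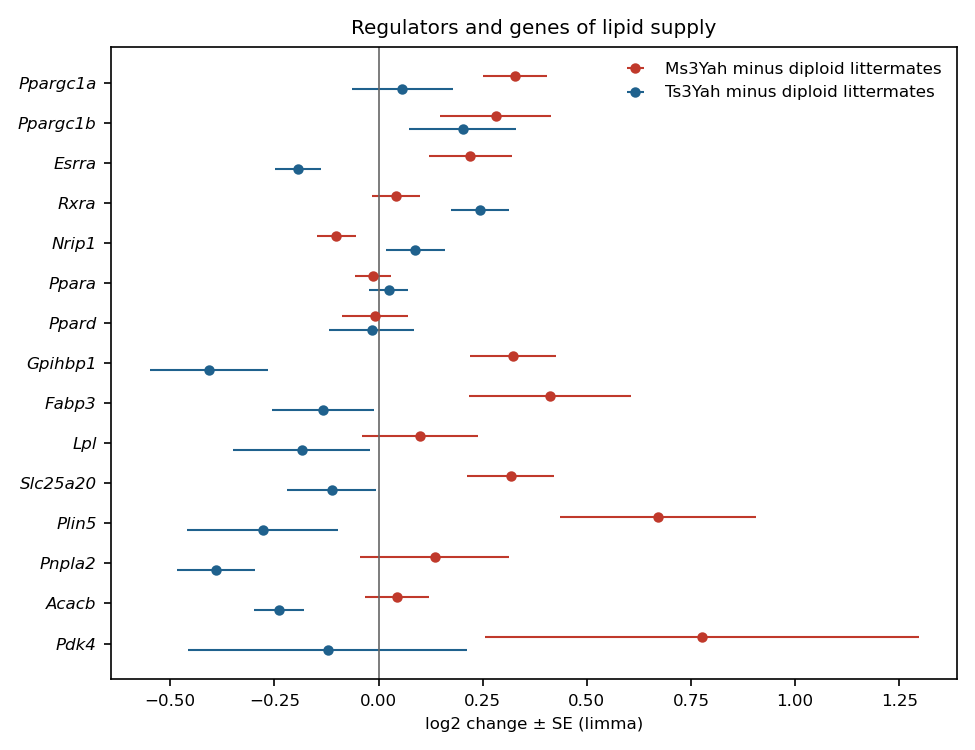
Log2 change ± SE (limma) of 15 regulators and genes of lipid supply and droplets in Ms3Yah muscle (red) and Ts3Yah muscle (blue) against diploid littermates. *Ppargc1a*, *Gpihbp1* and *Plin5* lie to the right of 0 in Ms3Yah, and *Esrra*, *Gpihbp1* and *Pnpla2* to the left in Ts3Yah.

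Markers of other cell types were read beside these counts. Endothelial markers were higher by mean in Ms3Yah for 5 of 7, against 48.9% of all genes. In Ts3Yah 6 of 7 were lower by mean, against 50.7%. At the unadjusted threshold 2 of 7 were higher in Ms3Yah (*Tie1* and *Esam*), against 3.02% of all genes. In Ts3Yah 2 of 7 were lower (*Pecam1* and *Tek*), against 3.35%. The difference between lines passed below 0 for 4 of 7, against 3.47% of all genes, with a median of −0.29. Their summed signals were 4853 to 5666 in Ms3Yah mice, against 4597 to 5515 in littermates. In Ts3Yah mice they were 3614 to 4113, against 3482 to 4886 in littermates. The defining marker *Kdr* was detected on 10 of 23 arrays. Fibroblast markers were higher by mean in Ms3Yah for 5 of 6, against 48.9% of all genes. At the unadjusted threshold 1 of 6, *Col1a1*, was higher, against 3.02%. Their summed signals were 15132 to 22248 in Ms3Yah mice, against 13074 to 17708 in littermates. In Ts3Yah 4 of 6 were higher by mean, with 0 past the threshold. The difference between lines passed below 0 for 2 of 6, against 3.47%. Slow fibre markers were higher by mean in Ms3Yah for 9 of 9, against 48.9% of all genes, with 0 past the threshold, against 3.02%. In Ts3Yah 5 of 9 were lower by mean, against 50.7%, with 0 past it, against 3.35%. Their sums ran from 31186 to 117224 in Ms3Yah mice, against 32893 to 90657 in littermates. In Ts3Yah they ran from 31336 to 131315, against 46308 to 73426. Adipocyte markers were lower by mean for 8 of 10 in Ms3Yah, against 51.1% of all genes. In Ts3Yah 7 of 10 were lower by mean, against 50.7%. At the threshold 0 of 10 passed in either line, against 2.99% and 3.35% of all genes lower. Their sums were 4170 to 13228 in Ms3Yah mice, against 5376 to 16095, and 4109 to 8242 in Ts3Yah mice, against 4898 to 10654. *Mb*, the myoglobin gene of oxidative fibres, was the 1 muscle marker of 10 past the threshold, lower in Ts3Yah (−0.27). The part of any of these in the values of the fatty acid oxidation genes was not tested.

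By *Xist* class, of the 33 members 28 were positive in the high class and 21 in the low class of the Ms3Yah line (3 mice against 3 in each). In the Ts3Yah line 24 and 25 were negative in the high and low classes (4 against 2, and 2 against 3). Shares of all genes within a class are not given here, so these counts have no background beside them. Scaling arrays to a common median in place of quantile normalisation gave lower counts at the unadjusted threshold, with 2 members higher in Ms3Yah and 1 lower in Ts3Yah. Over all genes the higher and lower shares in Ms3Yah were then 1.43% and 2.53%, against 3.02% and 2.99% with quantile normalisation. In Ts3Yah they were 1.84% and 1.73%, so that 1 of 33 members lower is near the share of all genes.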

How the data were processed

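Total RNA of gastrocnemius muscle from 23 mice was measured by the authors on Illumina MouseWG-6 v2.0 arrays. The labels call the trisomic mice Ts2Yah, taken as the paper's Ts3Yah, and a sixth diploid mouse of that line, which the authors dropped as a principal component outlier, was not analysed here. The deposited signals are intensity values per probe, neither background-subtracted nor normalised between arrays, with a detection p-value the authors give beside each. The lowest raw signal is 66.7. A second deposited table, the series matrix, holds background-subtracted, quantile-normalised intensity values on a linear scale, with 32.6% below 0 and column medians of 3.81 to 3.85, and its method of background subtraction stays unknown. The scanner software is not given in the sources used here.

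Signals were quantile normalised and put on the log2 scale. Expressed probes of a line exceeded the 35th percentile (89.8, log2 6.49) on 1 or more of its arrays, and 33 of 33 members passed in each line. Each line was fitted with limma 3.58.1 in R 4.3.3, and the difference between lines in a fit of all 4 groups. P-values were adjusted by Benjamini and Hochberg. The fit was checked on simulated data. Detection p-values below 0.05 count as detected. Of 45281 probes 34885 carry 1 gene name (34807 updated, 78 older), 18 several and 10378 none. Promoters were matched by symbol.

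Members and lists were chosen with earlier results of these data known. Every member with a probe is named, with full values for those of smallest p and for the defining enzymes, and related genes where the unadjusted p was below 0.05, with 5 regulators and carriers in any case. A few related genes plotted beside them were chosen after values were seen. Alternatives were background correction by neqc, median scaling, the series matrix, a detection filter, no filter, the mean over probes, 1 fit of all groups, the *Xist* class, the methods' t-test, and leaving out each mouse. P-values set a difference between groups against the spread between mice, and precision is limited by 5 or 6 arrays a group.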

Additional observations from a re-analysis of the deposited data

Results flagged for a closer look

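A mouse far from the rest of its group was found in 6 of 132 groups of 5 or 6 mice, where chance gives about 1 in 20. In diploid littermates of the Ms3Yah line, *Acadm* was lowest in replicate 37146 at 4966, against 6102 in the nearest mouse. In the same group *Acads* was highest in replicate 37075 at 1009, against 803.4, and *Etfa* in the same replicate at 6732, against 5677. Replicate 37094 was highest for *Acaa2* at 1677, against 1070, and for *Acot1* at 258.7, against 141.2. Among Ms3Yah mice *Decr1* was highest in replicate 37038 at 527.1, against 412.9.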

How the results depend on the processing

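Neither the sign of a median nor that of a member past the unadjusted threshold turned in any of 32 alternatives. With median scaling the counts at the unadjusted threshold were 2 of 33 higher in Ms3Yah, 1 lower in Ts3Yah and 3 differing between lines, against 8, 6 and 10, and the cause was not tested. The shares of all genes were then 1.43%, 1.73% and 1.89%. *Acaa2*, *Acadl* and *Acsl3* in Ms3Yah and *Acad10* in Ts3Yah still passed. Leaving out 1 mouse at a time, these counts ran from 7 to 11, from 4 to 10 and from 9 to 12, medians from 0.09 to 0.15 in Ms3Yah and from −0.08 to −0.03 in Ts3Yah, and adjusted calls from 0 to 1 in Ms3Yah and at 0 elsewhere. The 1 was *Acaa2* without diploid replicate 37094, and the 10 came without Ts3Yah replicate 34730. Over all alternatives the medians ran from 0.08 to 0.16 in Ms3Yah and from −0.09 to −0.03 in Ts3Yah. Of 2397 values of single members, 55 no longer passed the unadjusted threshold and 40 newly passed it. A further 15 stayed short of it but moved beyond the spread between mice. The other 2287 kept their side of the threshold and, where short of it, stayed within that spread. No paired analysis was possible because each mouse has its own number and no number occurs in 2 groups.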
